A study of Zea mays with 2 samples.

Results

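The genes described here are those of nitrate and ammonium uptake and of their assimilation into glutamine and glutamate in maize leaves. They were taken by words in the deposited family descriptions (nitrate, nitrite, ammonium transporter, glutamine synthetase or glutamate-ammonia ligase, glutamate synthase, glutamate dehydrogenase), with descriptions naming asparagine dropped. The rule matched 73 of the 39634 genes, the same 73 in both library tables, and no row was lost to the asparagine term. By their full descriptions, 41 of the 73 are nitrogen transport and assimilation genes. They comprise 7 genes of high-affinity nitrate transport, 8 of nitrate reductase, 2 of nitrite reductase, 9 of ammonium transport, 7 of glutamine synthetase, 1 of ferredoxin-dependent glutamate synthase, 3 of NADH-dependent glutamate synthase and 4 of glutamate dehydrogenase. The data go against the label for the other 32. Of these, 24 carry a family title that names nitrate but hold the domain of CASP-like membrane proteins, 6 are N-acetylglutamate synthase or kinase genes, and 2 are folylpolyglutamate synthase genes. These 32 are kept as matched rows and are described apart.

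RNA came from leaves of maize cultivar Sugar 75 at the V5 stage (fifth-leaf vegetative stage), from plants given seaweed extract and from control plants. Each group is 1 library made from a pool of 3 independent samples with 2 technical replicates, and the series title places the study under drought stress. Whether both pools came from droughted plants, and the dose and timing of the extract, are not given in the sources used here. In its title the treated library is called only a sample, and its treatment follows from the series text, which names 1 control and 1 treated library. With 1 library in each group there is no replicate spread and no test. Every difference below is one between 2 libraries, and the intervals are the deposited ones, which cover quantification of a single library and not the spread between plants.

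Roots take up nitrate and ammonium from the soil, and much of the nitrate is carried to the leaf. There, nitrate reductase in the cytosol makes nitrite, and nitrite reductase in the chloroplast makes ammonium, using reduced ferredoxin. Glutamine synthetase joins ammonium to glutamate, and glutamate synthase passes the amide group of glutamine to 2-oxoglutarate, which returns glutamate. In maize, nitrate and nitrite reduction take place mainly in mesophyll cells, while glutamine synthetase has a plastid form and several cytosolic forms that are spread over mesophyll, bundle sheath and vascular cells.

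Levels are in FPKM, fragments per kilobase scaled for library depth, a unit per length in which levels can be set side by side between genes. Summed FPKM was 230054 in the seaweed library and 233809 in the control library. The intervals place the seaweed library at the lower depth. Over 15129 genes, 1 implied fragment was worth a median of 1.23 times as much FPKM in that library. Differences are given as the log2 ratio, log2((seaweed + 1)/(control + 1)), which understates differences of low genes. The median log2 ratio of the 16272 genes that reached 1 FPKM in 1 or both libraries was 0.22, so a gene whose value is 0 lies below the typical gene. Centred values, with the seaweed FPKM divided by the median fold of 1.20, are given where they matter. A gene counts as higher or lower from a log2 ratio of 1 in size.

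Over the route, the genes of uptake and of nitrate and nitrite reduction had higher summed levels in the seaweed library, and those of glutamine synthetase, glutamate synthase and glutamate dehydrogenase had lower or similar sums. Summed FPKM in the seaweed library was 1.67 times that in the control library for nitrate transport, 1.56 times for nitrate reductase, 1.48 times for nitrite reductase and 1.68 times for ammonium transport. The corresponding folds were 0.917 for glutamine synthetase, 0.875 for ferredoxin-dependent glutamate synthase, 0.971 for NADH-dependent glutamate synthase and 0.870 for glutamate dehydrogenase. With both libraries scaled to the same median gene, the first 4 folds became 1.39, 1.29, 1.23 and 1.40, and the other 4 became 0.763, 0.727, 0.807 and 0.723. The first 4 folds thus stayed above 1 under that scaling. It lowers every fold by the same factor, so the other 4, already below 1, could not have crossed. The sums rest on few genes, and the split did not hold without the most abundant gene of each class. The nitrate reductase fold was then 1.05, or 0.869 with the scaling, and the glutamate dehydrogenase fold was 1.13, or 0.937 with the scaling.

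Of the 41 nitrogen genes, 23 reached 1 FPKM in at least 1 library and 8 reached 10 FPKM. Among the 23, 3 counted as higher and 0 as lower, a share of 13.0% higher, where 3.71% of all genes at that minimum were higher and 2.52% were lower. The 3 are a minor nitrate reductase gene, an ammonium transporter and a cytosolic glutamine synthetase. The first 2 were below 1 FPKM in the control library and met the minimum only through the seaweed library, where they are high, so the share is no support for a difference of the set. Of the 21 nitrogen genes at 1 FPKM in both libraries, 1 was higher and 0 lower. Over all 14279 genes at 1 FPKM in both libraries, 413 were higher and 224 lower. After centring, 2 of the 23 were higher and 2 lower, beside 2.04% and 3.39% of all genes. At a size of 1.5-fold, 8 of the 23 were higher and 3 lower, beside 16.6% and 5.67% of all genes. At 10 FPKM or more, 6.41% of all genes were higher and 4.36% lower, and 1 of the 8 nitrogen genes at that level was higher. The intervals of the 2 libraries did not overlap for 16 of the 23 genes, 10 higher and 6 lower in the seaweed library. That is a share of 69.6%, against 37.3% of all genes at the minimum. Intervals are narrower for genes with more fragments, and the shares were not matched for level. Of the 23, 8 reached 10 FPKM, beside 4041 of all 16272 genes. The 16 also include the 2 genes let in by the seaweed library alone, so this share is no support for a difference of the set either. The median log2 ratio of the 23 was 0.25, with quartiles of -0.15 and 0.67, and 0.013 after centring. The middle of the set thus lay close to that of all genes, and its members ran in both directions, from -0.95 to 1.99. Of the other 18 nitrogen genes, 5 were listed at 0 in both libraries and 13 had a value above 0 in at least 1 library but stayed below 1 FPKM, among them 2 listed at 0 in the control library.

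**Figure D1:**
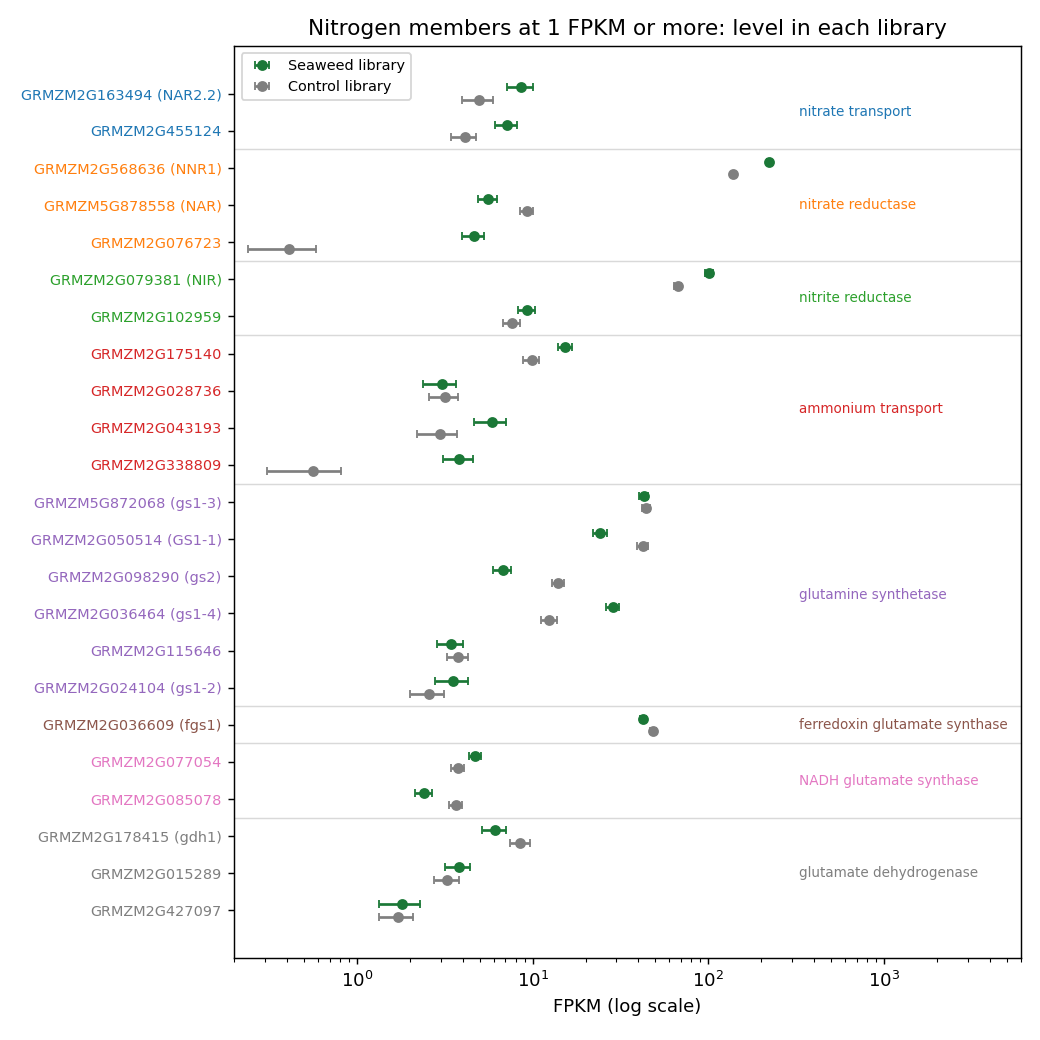
FPKM (log scale) of the 23 nitrogen genes at 1 FPKM or more, the seaweed library above the control library within each row, with deposited intervals as bars and genes grouped by role. NNR1 and NIR are the 2 most abundant, at 221 and 101 FPKM in the seaweed library, and GRMZM2G076723 and GRMZM2G338809 show the widest gaps between libraries.

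High-affinity nitrate transport is done by NRT2 carriers, which need a small accessory protein, NAR2, to work at the plasma membrane. The accessory gene NAR2.2 (GRMZM2G163494, chromosome 2, 37329547 to 37331367) had 8.61 FPKM (interval 7.15 to 10.1) in the seaweed library and 4.95 FPKM (3.97 to 5.93) in the control library. GRMZM2G455124, whose description names transporter 2.5, had 7.12 FPKM (6.13 to 8.10) in the seaweed library and 4.09 FPKM (3.45 to 4.74) in the control library. In Arabidopsis, NRT2.5 is the carrier known for nitrate-starved plants and for older leaves. GRMZM2G010280 and GRMZM2G010251, described below, carry the same title, so it does not mark GRMZM2G455124 alone. GRMZM2G455124 and NAR2.2 thus had near-equal folds, 1.74 each, with log2 ratios of 0.67 and 0.69. Both fell short of the size counted as higher, and their intervals did not overlap between libraries.

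The remaining nitrate transport genes were at the floor of the data. A NAR2-type gene, GRMZM2G179294, had 0.43 FPKM in the seaweed library and 0.50 in the control library, with overlapping intervals. GRMZM2G377555, described as a transporter 2.7, had 0.067 FPKM in the seaweed library and 0.15 in the control library, a single implied fragment in the seaweed library. GRMZM2G010280 and GRMZM2G010251, side by side on chromosome 4 and sharing a RefSeq gene entry, and GRMZM2G163866 were listed at 0 in both libraries. GRMZM2G010280 carries the symbol nrt2.2 in the files. As near copies, the first pair may share reads, and the authors' handling of such reads was not given in the sources used here.

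Nitrate reductase carries out the first reduction step and uses a molybdenum cofactor, haem and FAD. NNR1 (GRMZM2G568636, chromosome 4, 56308167 to 56313225) had 221 FPKM (interval 217 to 225) in the seaweed library and 139 FPKM (136 to 142) in the control library. It ranked 95 among all genes in the seaweed library and 179 in the control library, and it made up 95.4% of nitrate reductase FPKM in the seaweed library and 93.1% in the control library. The fold was 1.59 and the log2 ratio 0.67 (interval 0.63 to 0.71), or 0.40 after centring, so the level was higher than the typical gene's shift but below the size counted.

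GRMZM2G076723 (chromosome 1, 198738738 to 198743220), a further gene with all the nitrate reductase domains and no symbol, gave the largest log2 ratio of the whole set. Its level was 4.62 FPKM (interval 3.96 to 5.27) in the seaweed library, against 0.41 FPKM (0.24 to 0.58) in the control library. The fold of 11.3 corresponds to a log2 ratio of 1.99 (1.75 to 2.24), and 1.78 after centring, and the values rest on about 199 implied fragments in the seaweed library and 22.8 in the control library. It stayed a minor gene, at 1.99% of nitrate reductase FPKM in the seaweed library and 0.275% in the control library. In the authors' deposited table it had a log2 fold change of 3.19 with p = 0.00075 and q = 0.0892 and was not flagged as significant.

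The NAD(P)H-type gene NAR (GRMZM5G878558) ran the other way, with 5.60 FPKM (interval 4.91 to 6.28) in the seaweed library and 9.25 FPKM (8.46 to 10.04) in the control library. Its log2 ratio was -0.64, and -0.86 after centring. Another gene with the full set of domains, GRMZM2G428027, had 0.056 FPKM in the seaweed library, from about 3 implied fragments, and 0.39 FPKM in the control library, from about 25.8. The 3 nitrate reductase genes at 1 FPKM or more thus lay in both directions. The 4 remaining rows, 2 listed with part of the domain set and 2 with no domain entry in the files, stayed below 0.3 FPKM in both libraries.

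Nitrite reductase follows in the chloroplast, where it prevents a build-up of toxic nitrite. NIR (GRMZM2G079381, chromosome 4, 178582232 to 178585788) had 101 FPKM (interval 96.05 to 106) in the seaweed library and 67.0 FPKM (63.6 to 70.3) in the control library. The log2 ratio was 0.58 (0.49 to 0.68), and 0.32 after centring. A further nitrite reductase gene, GRMZM2G102959, had 9.29 FPKM in the seaweed library and 7.64 in the control library, with overlapping intervals and a log2 ratio of 0.25, which is 0.01 after centring. Set against each other within a library, summed nitrate reductase over summed nitrite reductase was 2.11 in the seaweed library and 1.9996 in the control library. The ratio between these reduction steps was thus nearly the same in both libraries, while both sums were higher in the seaweed library.

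**Figure D2:**
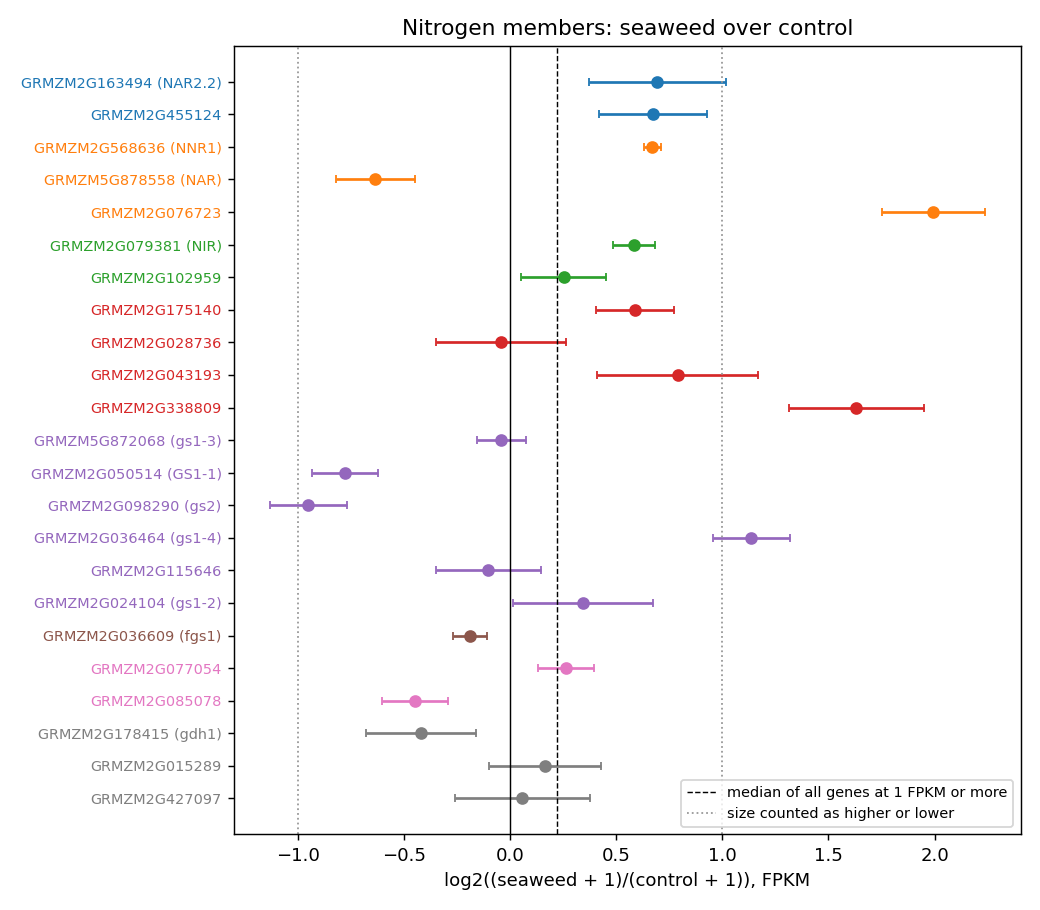
Log2 ratio of seaweed over control for the same 23 genes, with intervals propagated from the deposited ones, the median of all genes dashed and the size counted as higher or lower dotted. Points of nitrate transport, nitrite reductase and most of ammonium transport lie right of 0, while glutamine synthetase genes spread from -0.95 to 1.14.

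Ammonium transporters carry ammonium across membranes, and in leaves they take back ammonium that leaks from cells. The most abundant, GRMZM2G175140 (chromosome 10, 130079194 to 130081274), had 15.3 FPKM (interval 13.9 to 16.7) in the seaweed library and 9.86 FPKM (8.86 to 10.9) in the control library, a log2 ratio of 0.59. GRMZM2G043193 had 5.84 FPKM (4.64 to 7.04) in the seaweed library and 2.96 FPKM (2.19 to 3.73) in the control library, a log2 ratio of 0.79. Neither reached the size counted as higher, and neither pair of intervals overlapped.

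GRMZM2G338809 (chromosome 1, 296707374 to 296710984) showed the widest difference among the transporters. Its level was 3.83 FPKM (interval 3.11 to 4.55) in the seaweed library and 0.56 FPKM (0.31 to 0.81) in the control library. The fold was 6.84 and the log2 ratio 1.63 (1.31 to 1.95), or 1.42 after centring, from about 113 implied fragments in the seaweed library and 19.5 in the control library. It supplied 13.3% of ammonium transporter FPKM in the seaweed library and 3.26% in the control library. This gene is not among those in the authors' deposited lists.

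GRMZM2G028736 differed little, with 3.03 FPKM in the seaweed library and 3.16 in the control library. GRMZM2G175140, GRMZM2G028736 and the low GRMZM2G118950 carry the same subfamily title, so a shared title did not go with a shared ratio. The other 5 transporter genes stayed at 0.6 FPKM or below in both libraries, and 2 of them were listed at 0 in both.

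Glutamine synthetase genes lay in both directions. The class sum was 110 FPKM in the seaweed library and 120 FPKM in the control library, but its makeup differed. The gene gs1-4 (GRMZM2G036464, chromosome 4, 167081371 to 167084703; gln5 in the files), a cytosolic form described in maize as a bundle sheath enzyme, had 28.5 FPKM (interval 26.2 to 30.8) in the seaweed library and 12.4 FPKM (11.1 to 13.7) in the control library. Its fold was 2.30 and its log2 ratio 1.14 (0.96 to 1.32), which counts as higher on the deposited scale. Centred, the log2 ratio was 0.88 and the gene no longer counted. It is not among the genes of the authors' deposited lists.

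GS1-1 (GRMZM2G050514, chromosome 1, 27977782 to 27981439; gln3 in the files), another cytosolic form, lay the other way. It had 24.2 FPKM (interval 22.01 to 26.4) in the seaweed library and 42.3 FPKM (39.5 to 45.1) in the control library. The log2 ratio was -0.78 (-0.94 to -0.62), and -1.03 after centring, where it counts as lower.

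The plastid form gs2 (GRMZM2G098290, chromosome 10, 146465613 to 146471079; gln1 in the files) fixes ammonium from nitrite reduction and from photorespiration in the chloroplast. It had 6.74 FPKM (interval 5.95 to 7.52) in the seaweed library, against 13.97 FPKM (12.9 to 15.1) in the control library. The log2 ratio was -0.95 (-1.13 to -0.77), just short of the size counted as lower on the deposited scale, and -1.18 after centring. The authors' deposited table lists it with a log2 fold change of -1.31, p = 0.013 and q = 0.526, not flagged as significant. The RefSeq entry of gs2 also names a further gene model, GRMZM5G885867, which is not among the matched genes. Plastid values here and in the ratios below therefore rest on GRMZM2G098290 alone.

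The most abundant form, gs1-3 (GRMZM5G872068, chromosome 5, 205237018 to 205240533), is a cytosolic enzyme described in maize as a mesophyll one. It had 43.0 FPKM (interval 40.4 to 45.6) in the seaweed library and 44.3 FPKM (41.9 to 46.7) in the control library, with overlapping intervals and a log2 ratio of -0.04, or -0.30 after centring. The gene gs1-2 (GRMZM2G024104) had 3.53 FPKM in the seaweed library and 2.57 in the control library, also with overlapping intervals. GRMZM2G115646, a longer gene model with an amidohydrolase domain beside the synthetase domain, had 3.44 FPKM in the seaweed library and 3.77 in the control library, and GRMZM2G046601 had 0.58 in each.

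Within the class, gs1-4 took 25.9% of the summed FPKM in the seaweed library and 10.4% in the control library, and gs1-3 took 39.1% in the seaweed library and 36.9% in the control library. GS1-1 took 22.01% in the seaweed library and 35.3% in the control library, and gs2 took 6.13% in the seaweed library and 11.7% in the control library. The 5 cytosolic-type genes summed to 99.8 FPKM in the seaweed library and 102 FPKM in the control library. Their sum stood at 14.8 times the plastid gene in the seaweed library and at 7.31 times in the control library. Ratios of this kind within a library do not depend on how the libraries are scaled. The cytosolic copies are alike in sequence family (gs1-3 and gs1-4 have the same subfamily title, as do GS1-1 and GRMZM2G046601), and the handling of reads they share was not given in the sources used here.

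**Figure D3:**
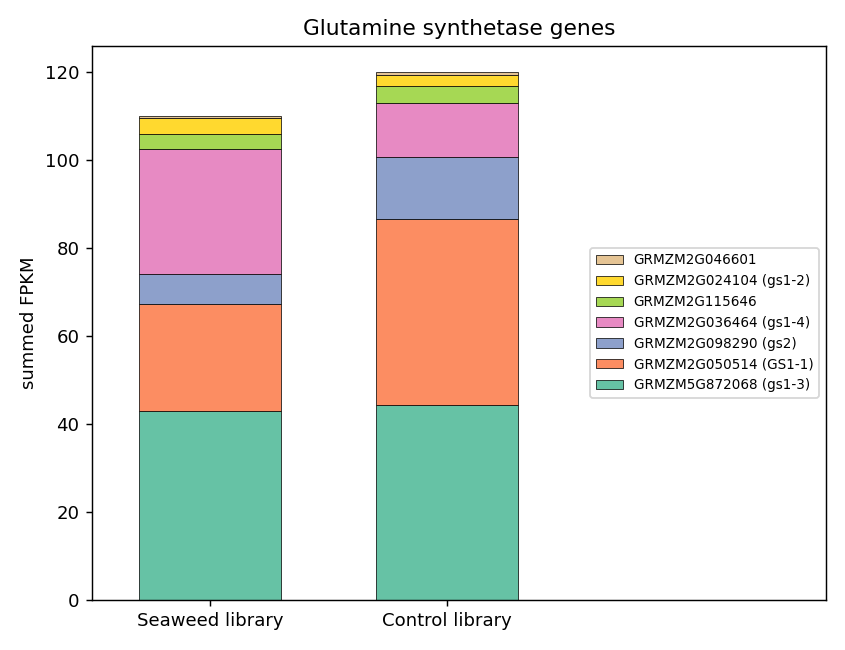
Summed FPKM of the 7 glutamine synthetase genes in the seaweed library (left bar) and the control library (right bar), 1 colour a gene. The bars reach 110 FPKM in the seaweed library and 120 FPKM in the control library, and gs1-4 is the wider band in the seaweed library and GS1-1 and gs2 are the wider bands in the control library.

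Glutamate synthase completes the cycle. The ferredoxin-dependent gene fgs1 (GRMZM2G036609, chromosome 7, 170961144 to 170979959), whose plastid enzyme is the main leaf form, had 42.6 FPKM (interval 40.8 to 44.3) in the seaweed library and 48.7 FPKM (46.8 to 50.6) in the control library. Its log2 ratio was -0.19 (-0.27 to -0.11), and -0.45 after centring. Plastid glutamine synthetase over ferredoxin-dependent glutamate synthase was 0.158 in the seaweed library and 0.287 in the control library. Nitrite reductase over plastid glutamine synthetase was 16.4 in the seaweed library and 5.34 in the control library.

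The NADH-dependent glutamate synthase genes, known for non-green and vascular tissue, were low and ran in both directions. GRMZM2G077054 had 4.69 FPKM (interval 4.32 to 5.07) in the seaweed library and 3.74 FPKM (3.44 to 4.05) in the control library, a log2 ratio of 0.26. GRMZM2G085078 had 2.41 FPKM (2.13 to 2.69) in the seaweed library and 3.65 FPKM (3.32 to 3.99) in the control library, a log2 ratio of -0.45. The third, GRMZM2G375064, had 0.25 FPKM in the seaweed library and 0.16 in the control library. Their sums, 7.35 FPKM in the seaweed library and 7.56 FPKM in the control library, hide these opposed values.

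Glutamate dehydrogenase mostly releases ammonium from glutamate in the mitochondrion. The gene gdh1 (GRMZM2G178415, chromosome 1, 287289675 to 287296815) had 6.10 FPKM (interval 5.12 to 7.08) in the seaweed library and 8.51 FPKM (7.41 to 9.61) in the control library, a log2 ratio of -0.42. GRMZM2G015289, described as the NADP form, had 3.79 FPKM in the seaweed library and 3.27 in the control library. GRMZM2G427097 had 1.81 FPKM in the seaweed library and 1.70 in the control library, and GRMZM2G159544 stayed below 0.1 FPKM in both. The intervals overlapped for the last 3, and the log2 ratios of GRMZM2G015289 and GRMZM2G427097, 0.16 and 0.06, turned to -0.04 and -0.11 after centring. Without gdh1 the class fold was 1.13 in place of 0.870.

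**Figure D4:**
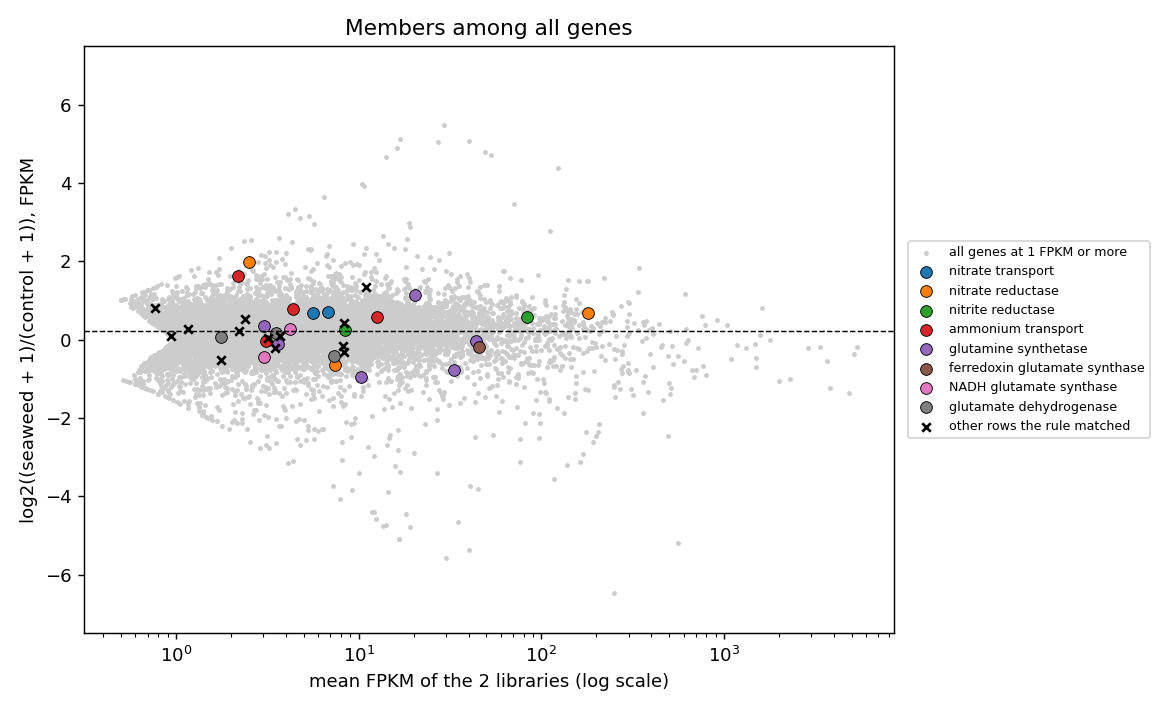
Log2 ratio of seaweed over control against the mean FPKM of both libraries (log scale) for all 16272 genes at 1 FPKM or more (grey), the nitrogen genes (coloured by role) and the other matched rows (crosses), with the median of all genes dashed. The nitrogen genes lie on both sides of the dashed line at 0.22, from -0.95 to 1.99.

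Of the 32 rows matched by words alone, 13 reached 1 FPKM, 1 of them counted as higher and 0 as lower, with a median log2 ratio of 0.096. The higher one was the CASP-like gene GRMZM5G863076 (chromosome 2, 157033449 to 157035662), with 16.1 FPKM (interval 13.8 to 18.4) in the seaweed library and 5.79 FPKM (4.59 to 6.98) in the control library, a log2 ratio of 1.34. CASP-like proteins are small membrane proteins related to those that guide the Casparian strip of the root endodermis. The authors' deposited table gives this gene a log2 fold change of 1.16 with p = 0.0343 and q = 0.802, not flagged as significant. The highest acetylglutamate gene, GRMZM2G134426, which serves arginine synthesis, had 7.70 FPKM in the seaweed library and 8.70 in the control library, with overlapping intervals. The folylpolyglutamate synthase gene fgp1 (GRMZM2G393334), which adds glutamates to folate, had 9.67 FPKM (8.70 to 10.6) in the seaweed library and 6.97 FPKM (6.24 to 7.70) in the control library. Over all 73 matched rows, 36 reached the minimum, 4 were higher and 0 lower, beside the 3.71% and 2.52% of all genes, and after centring 3 were higher and 2 lower. The median log2 ratio was 0.19, or -0.0090 after centring. Of the 4, 2 were below 1 FPKM in the control library. The other 37 were below 1 FPKM, 11 of them listed at 0 in both libraries.

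The authors' deposited log2 fold changes are on another scale from the ratios given here. Over the 895 genes with finite folds in the authors' deposited table, they lay at a median of 0.27 below the log2 ratio of the library tables taken without the added 1. The 3 genes quoted above are the only members in those lists, and a comparison of 1 library with 1 compares those libraries, not the conditions.

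Summed levels of the genes taken as leaf cell type markers were lower in the seaweed library. Mesophyll markers (pep1 and carbonic anhydrases, 15 matched, 10 of them at 1 FPKM or more and 5 listed at 0 in both) summed to 1791 FPKM in the seaweed library and 2458 FPKM in the control library. Bundle sheath markers (ssu1, RCA1, me3 and PEP carboxykinases, 14 matched, 9 at the minimum and 3 listed at 0 in both) summed to 1318 FPKM in the seaweed library and 2171 FPKM in the control library. Both sets were abundant in both libraries, and single genes weighed heavily in the sums. In the mesophyll sum, pep1 alone had 1262 FPKM in the seaweed library and 1747 FPKM in the control library. In the bundle sheath sum, me3 alone had 591 FPKM in the seaweed library and 944 FPKM in the control library. The symbol ppdk1, also on the mesophyll list, matched no gene. Nicotianamine synthase genes, taken as a root check, summed to 112 FPKM in the seaweed library and 95.6 FPKM in the control library, from 3 genes at the minimum of 10 matched, with 7 listed at 0 in both. These levels alone do not show whether root RNA was present, which was not tested. In bulk leaf RNA, fewer cells of a type and less RNA per cell cannot be told apart, and the part of cell makeup in the values above was not tested.

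Genes next to the pathway were described from lists matched on descriptions, with the nitrogen members left out. Their counts stand beside 3.71% higher and 2.52% lower over all genes on the deposited scale, and 2.04% and 3.39% after centring. Genes matched by molybdenum cofactor words numbered 18, and not all of them need serve nitrate reductase. Of the 18, 10 reached 1 FPKM, 0 were higher and 1 was lower, with a median log2 ratio of 0.20. The lower one, GRMZM2G175396, described as a cofactor sulfurase and named after its values were seen, had 0.97 FPKM in the seaweed library and 5.28 in the control library. GRMZM2G119468, with the same description, had 1.63 FPKM in the seaweed library and 1.91 in the control library. The synthesis genes GRMZM2G135816 and GRMZM2G121468 had 20.7 and 13.8 FPKM in the seaweed library, against 17.3 and 11.4 FPKM in the control library, and 5 of the 10 lay above the median gene. Of the RWP-RK genes, a family that holds the NIN-like regulators of nitrate responses, 2 of 5 reached 1 FPKM. GRMZM2G109509 was the abundant one, with 29.8 FPKM (interval 27.9 to 31.8) in the seaweed library and 19.8 FPKM (18.4 to 21.2) in the control library, a log2 ratio of 0.57. No description matched the siroheme or PII words of the lists.

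Amino acid transporters carry the products of assimilation between cells. Of 89 matched, 45 reached 1 FPKM, and of these 11 were higher and 0 lower on the deposited scale, and 7 higher and 0 lower after centring. Their median log2 ratio was 0.47, against 0.22 for all genes, and 32 of the 45 lay above the median gene. Only 26 of the 45 reached 1 FPKM in both libraries. Genes let in by 1 library bear on both figures, so neither is support for a difference of the list. Of the 11, 9 were below 1 FPKM in the control library and met the minimum only through the seaweed library, where they are high. Among the 26 genes of the list at 1 FPKM in both libraries, 2 were higher and 0 lower, beside 413 and 224 of all 14279 such genes. GRMZM2G180659, of the lysine and histidine transporter group, had 32.2 FPKM (interval 30.0 to 34.4) in the seaweed library and 17.8 FPKM (16.3 to 19.2) in the control library. GRMZM2G164814 had 10.4 FPKM in the seaweed library and 5.09 in the control library. Picked after its values were seen, GRMZM2G078024 had the largest ratio of the list, with 6.80 FPKM in the seaweed library and 0.87 in the control library, a log2 ratio of 2.06.

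Oligopeptide transporters and the NRT1/PTR family, which holds low-affinity nitrate carriers as well as peptide carriers, ran in both directions. By their words, 81 rows matched, 26 reached 1 FPKM, 3 were higher and 5 lower, and the median log2 ratio was -0.10. After centring 0 were higher and 5 lower, with a median of -0.36. Of the 5 lower on the deposited scale, 2 were below 1 FPKM in the seaweed library and met the minimum only through the control library. Among the 18 genes of the list at 1 FPKM in both libraries, 3 were higher and 3 lower on that scale. Over all 14279 such genes, 413 were higher and 224 lower. GRMZM2G161459 had 2.02 FPKM (interval 1.52 to 2.51) in the seaweed library and 16.1 FPKM (14.7 to 17.4) in the control library, a log2 ratio of -2.50. GRMZM2G421491, described as oligopeptide transporter 3, had 4.90 FPKM in the seaweed library and 28.0 in the control library. The words missed rows titled by family, so a second list by the NRT1/PTR family number was added after the data were seen, and it shares genes with the first. It matched 79 rows, of which 28 reached 1 FPKM, 2 were higher and 3 lower, with a median of 0.10. After centring 1 was higher and 3 lower, and the median turned to -0.15. Of the 3 lower on the deposited scale, 1 was below 1 FPKM in the seaweed library. Among the 24 genes of this second list at 1 FPKM in both libraries, 2 were higher and 2 lower on that scale. GRMZM2G472167 of that list had 20.3 FPKM in the seaweed library and 8.14 in the control library, a log2 ratio of 1.22 that fell short of the size counted, at 0.96, after centring.

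Among the family, 3 genes were named after their values were seen because their titles match nitrate carriers known in Arabidopsis. NPF6.3, the dual-affinity nitrate carrier and sensor of Arabidopsis, is the title of GRMZM2G086496, with 8.66 FPKM in the seaweed library and 5.32 in the control library, a log2 ratio of 0.61. GRMZM2G176253, titled NPF6.4, had 21.6 FPKM in the seaweed library and 11.3 in the control library, a log2 ratio of 0.88. GRMZM2G044851, titled NPF7.2, had 6.83 FPKM (interval 5.96 to 7.71) in the seaweed library and 1.06 FPKM (0.77 to 1.36) in the control library, a log2 ratio of 1.92, or 1.70 after centring. In Arabidopsis NPF7.2 removes nitrate from the xylem sap. Values of these 3 were higher in the seaweed library, but they were chosen for their titles with those values known. Of the 28 genes at 1 FPKM or more in the list by family number, 10 lay above the median gene.

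The median of the enzymes that supply carbon to the cycle was close to that of all genes. Of 35 carbon skeleton genes (isocitrate dehydrogenase, citrate synthase, aconitase and PEP carboxylase words), 22 reached 1 FPKM, 0 were higher and 0 lower, with a median of 0.23. The NADP isocitrate dehydrogenase gene GRMZM2G432128, which makes 2-oxoglutarate, had 21.1 FPKM in the seaweed library and 12.8 in the control library, and idh2 (GRMZM5G829778) had 17.3 FPKM in the seaweed library and 11.9 in the control library. The PEP carboxylase gene pep1 (GRMZM2G083841), named here for its level, ran the other way. It had 1262 FPKM in the seaweed library and 1747 in the control library, a log2 ratio of -0.47. Of 6 dicarboxylate exchange genes, 5 reached the minimum, 0 were higher and 0 lower, and the median was -0.13. The chloroplast 2-oxoglutarate and malate carrier ZmpOMT1 (GRMZM2G383088) had 13.5 FPKM (interval 12.2 to 14.8) in the seaweed library and 21.7 FPKM (20.3 to 23.2) in the control library. The mitochondrial carrier GRMZM2G051630 had 10.3 FPKM in the seaweed library and 11.4 in the control library.

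The aminotransferase list held 3 genes, all at the minimum, of which 1 was higher and 0 lower. GRMZM2G146677, an aspartate aminotransferase, had 331 FPKM (interval 315 to 347) in the seaweed library and 111 FPKM (104 to 117) in the control library, a fold of 2.99. The chloroplast-type gene GRMZM5G836910 had 112 FPKM in the seaweed library and 141 in the control library. These enzymes move amino groups between glutamate and aspartate, and in maize they also serve the C4 carbon shuttle.

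Glycine cleavage and serine hydroxymethyltransferase words matched 17 genes, and not all of them need be photorespiratory. Of these, 10 reached the minimum, 1 was higher and 1 lower, and the median was 0.35. After centring 0 were higher and 1 lower, with a median of 0.10. GRMZM2G452630, titled serine hydroxymethyltransferase 6-related, had 15.6 FPKM in the seaweed library and 6.27 in the control library, a log2 ratio of 1.19, or 0.94 after centring. The glycine cleavage H protein gene GRMZM2G399183 had 16.5 FPKM in the seaweed library and 36.1 in the control library, a log2 ratio of -1.09. Glycine cleavage releases ammonium in the mitochondrion, which plastid glutamine synthetase fixes again.

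Of the GABA route, which drains glutamate by decarboxylation, 6 of 11 genes reached the minimum, 1 was higher and 1 lower, and after centring 0 were higher and 1 lower. These 2 genes are named after their values were seen. The glutamate decarboxylase gene GRMZM2G017110 had 2.22 FPKM in the seaweed library and 6.72 in the control library, and the transaminase gene GRMZM2G093900 had 9.89 FPKM in the seaweed library and 3.71 in the control library, a log2 ratio of 0.97 after centring. Genes from glutamate to proline and arginine matched 22 rows, of which 19 reached the minimum, 0 were higher and 0 lower, with a median of 0.31. The carbamoyl-phosphate synthase large subunit GRMZM2G700683 had 16.3 FPKM in the seaweed library and 15.7 in the control library, and the argininosuccinate synthase gene GRMZM2G010406 had 9.53 FPKM in the seaweed library and 10.6 in the control library. Urea and ureide words matched 4 genes, 3 at the minimum with a median of 0.42, and 0 were higher or lower. The urate oxidase gene GRMZM2G164141 of this list had 12.0 FPKM in the seaweed library and 8.08 in the control library. Of 6 glutamine amidotransferase rows, 3 reached the minimum, 0 were higher and 0 lower, with a median of 0.67. GRMZM2G170338 of this list had 29.6 FPKM in the seaweed library and 17.2 in the control library, and GRMZM2G023528 had 31.4 FPKM in the seaweed library and 35.9 in the control library.

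**Figure D5:**
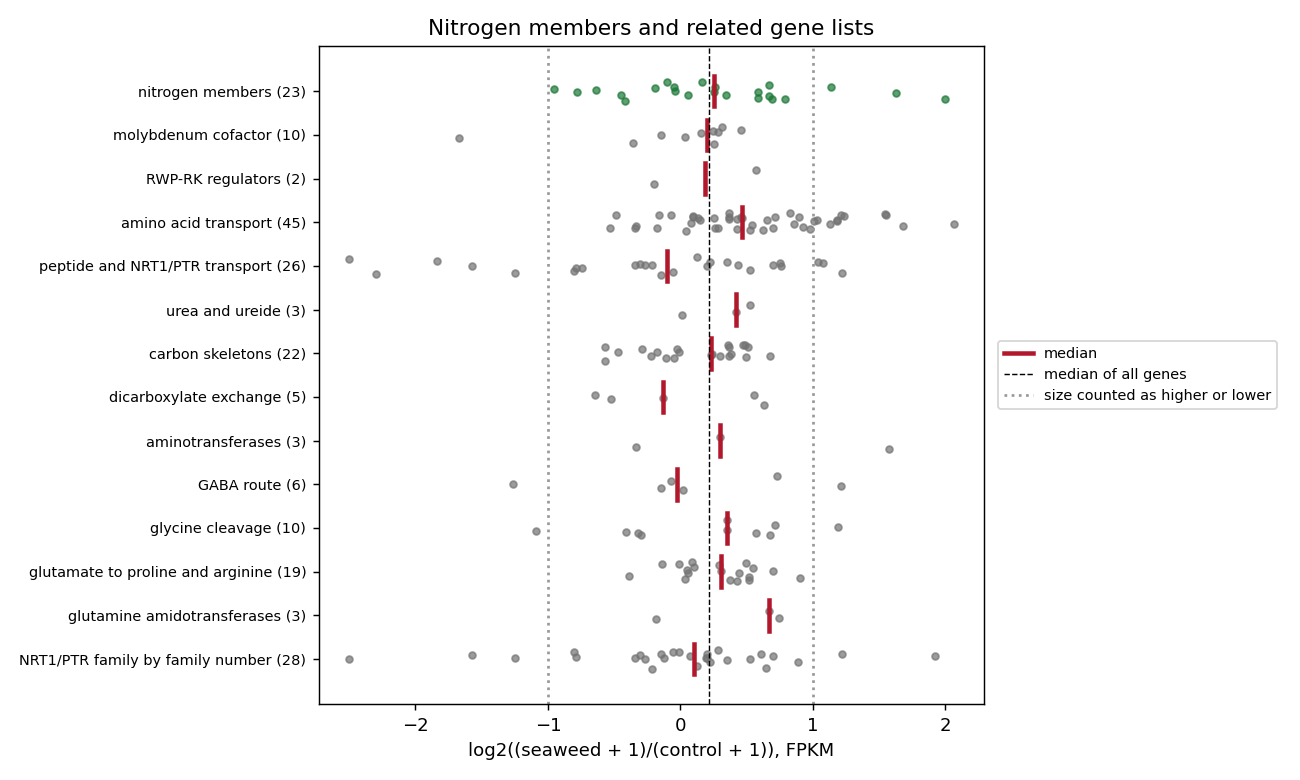
Log2 ratio of seaweed over control for each gene at 1 FPKM or more of the nitrogen set and of the related lists, with the number of genes in brackets, the median of each list as a bar, the median of all genes dashed and the size counted as higher or lower dotted. Amino acid transport has its bar at 0.47, right of the dashed line at 0.22, and the nitrogen genes have theirs at 0.25. Of the 45 amino acid transport genes, 26 reached 1 FPKM in both libraries, and those let in by 1 library bear on the bar.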

How the data were processed

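The library tables hold, per the file headers, 1 FPKM value per gene with the bounds of its interval and a status, which was OK for every member. The submitters' processing notes name Picard 1.115, cutadapt 1.8.1, Cufflinks 2.2.1, Cuffdiff, Bowtie2 2.2.6 and TopHat2 2.1.0, with no roles. Which genome build was used was not given in the sources used here. Log2 fold changes, p-values and q-values in the authors' deposited comparison lists are quoted only, and 8 further FPKM columns in them match no library's label and were not used.

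Log2 ratios used a pseudocount of 1 FPKM, a minimum of 1 FPKM in at least 1 library and a size of 1 for a call. An interval was read as 2 standard errors on each side, which also gives the implied fragment number and the error of the ratio. The bounds need not be counting error alone, so implied fragment numbers are approximate. Gene fgs1 had 42.6 FPKM on 2374 implied fragments in the seaweed library and 48.7 FPKM on 2725 in the control library. NIR had 101 FPKM on 1735 in the seaweed library and 67.0 FPKM on 1577 in the control library, another relation between libraries. Depth is otherwise unknown. Coordinates are those of the deposited tables. Gene symbols came from the tables and, for 52 of the 73 members, from RefSeq.

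The members and lists were chosen with earlier results of these data known. Members at 10 FPKM or more, those counted as higher or lower, those in the authors' lists and the highest of each class are named in full, with the 2 members of each related list at 10 FPKM or more that have the largest ratio. Other members are named so that each class is accounted for. Calculations used pandas 2.3.3 and numpy 2.4.6 and were tested on simulated data.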

Additional observations from a re-analysis of the deposited data

How the results depend on the processing

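Of all matched genes, 4 counted as higher and 0 as lower, and the median log2 ratio was 0.19. With a pseudocount of 0.1 FPKM, 1 counted as lower. With a pseudocount of 5 FPKM, 0 counted as higher and the median was 0.092. Without the minimum the median was 0.096, and with a minimum of 5 FPKM 2 counted as higher and the median was 0.34. Centring on the median gene gave 2 lower and a median of -0.0090, and upper quartile scaling gave 2 lower and -0.016. A call at 1.5-fold gave 10 higher and 3 lower. For the nitrogen genes alone, 3 were higher, 0 lower and the median was 0.25. A pseudocount of 0.1 FPKM gave 1 lower, and one of 5 FPKM gave 0 higher and a median of 0.15. No minimum gave a median of 0.055, and a minimum of 5 FPKM gave 1 higher and 0.42. Centring gave 2 lower and 0.013, upper quartile scaling 2 lower and 0.0041, and a call at 1.5-fold 8 higher and 3 lower. Over all genes, 604 were higher and 410 lower. The counts were 1361 higher and 657 lower with a pseudocount of 0.1 FPKM, 154 and 162 with one of 5 FPKM, and 400 and 242 with a minimum of 5 FPKM. At 1.5-fold, chosen after seeing the data, 2696 were higher and 922 lower. Centring gave 332 higher and 552 lower, and upper quartile scaling 323 and 555. The 11 amino acid transporters counted as higher became 17 with a pseudocount of 0.1 FPKM, 1 with one of 5 FPKM, 3 with a minimum of 5 FPKM, 7 after centring and 6 after upper quartile scaling. After centring or upper quartile scaling, 0 of the peptide and NRT1/PTR list, matched by words, were higher. Of the values of single genes, class sums and related lists under other settings, 127 moved and 221 did not. No result changed sign while counted as higher or lower. All 16 genes named in full by the naming rule kept the sign of their log2 ratio in every one of the up to 6 settings that kept them. For most settings this was fixed in advance, since a change of pseudocount or minimum cannot alter the sign of a gene's ratio. Both scalings only lower the seaweed values, so they could have altered the sign of genes with positive ratios alone. The cause of these moves was not tested beyond how each setting is built, as a larger pseudocount shrinks ratios of low genes. With 1 library in each group no library could be left out. No paired analysis was possible because each group has 1 library. The planned description of promoter motifs was not run, since no promoter table was used here.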
